A study of Rattus norvegicus with 30 samples.

Results

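The genes of the cytosolic ribosomal proteins were described in the brain of 10 WT, 10 HIP and 10 AKO rats. All genes whose symbol starts with Rpl or Rps followed by a digit, and Rplp0, Rplp1, Rplp2 and Rpsa, were taken, and the Rps6k kinases were left out. This rule found 86 of 17134 genes and used no measured value. Of these, 68 encode core proteins, 36 of the 60S subunit, 29 of the 40S subunit and 3 of the P stalk. Another 6 are paralogues that can replace or resemble a core protein, and 12 carry the name of a copy or pseudogene of a core gene. The core list held 77 symbols. The 9 that were not matched are not analysed here, namely Rpl7, Rpl10, Rpl13a, Rpl27a, Rpl36, Rpl37a, Rpl41, Rps7 and Rps26.

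All rats were males on normal diet. WT rats carry rat amylin, a hormone of the pancreatic β-cell that does not form amyloid. HIP rats express a human amylin transgene, which does form amyloid, in pancreatic β-cells, and AKO rats lack amylin. WT and HIP rats were 15 to 16 months old, and the age of the AKO rats is not given in the sources used here. The names of AKO rats hold KAH or AKO, and those of WT and HIP rats hold RT. In both comparisons with AKO rats, a difference in age or in what these names stand for cannot be told apart from the lack of amylin. The tissue is labelled frontal cortex, whereas the study's methods name cerebral cortex and its results speak of hippocampal tissue. Each rat gave 1 mRNA library.

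Cytosolic ribosomal proteins coat the ribosomal RNA of both subunits and are made in all cells. Their mRNAs begin with a run of pyrimidines at the cap, the terminal oligopyrimidine (TOP) motif, through which mTOR and LARP1 set their translation. In neurons these mRNAs are also found in axons and dendrites, where they are translated locally.

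The start sites of 54 of the 68 core genes could be read from RefSeq promoter windows of the rat assembly GRCr8, which is not the rn7 build of the files. They are shown because the shared run of pyrimidines at the start is a feature that the rule did not use. A run of at least 5 bases on the gene strand, a C followed by C or T only, lay within 15 bases of the start in 45 core genes (83.3%) and in 34.8% of all 33469 windows. In the sequences below, 15 bases before and 15 from the start on, capitals mark the longest such run, and Rps19 and Rps16 have none.
Rplp0: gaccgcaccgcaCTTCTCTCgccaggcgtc
Rplp1: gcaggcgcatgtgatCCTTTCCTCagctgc
Rplp2: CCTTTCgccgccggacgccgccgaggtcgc
Rps2: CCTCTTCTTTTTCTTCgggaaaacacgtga
Rps28: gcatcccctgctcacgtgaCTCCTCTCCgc
Rpl13: ctttgcggtgcccgatCCTTTCCgctcggc
Rps27: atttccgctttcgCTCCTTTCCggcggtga
Rpl31: ccacaatccctcgcgCCTTTCCTTTCCaac
Rps19: cccgacttgtgcgcccgggaaaccccgtcg
Rps16: cctggaaaatcggtcggggtggccccaagc

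These windows cover the annotated start, upstream bases and the first transcribed bases. On the plus strand they were chr1:205975906-205975935 for Rplp2, chr10:14251833-14251862 for Rps2, chr19:68062499-68062528 for Rpl13, chr9:49143096-49143125 for Rpl31, chr1:89608673-89608702 for Rps19 and chr1:92770643-92770672 for Rps16. On the minus strand they were chr12:46718376-46718405 for Rplp0, chr8:71290858-71290887 for Rplp1, chr7:15311319-15311348 for Rps28 and chr2:177964592-177964621 for Rps27. Within these windows the run was longest in Rps2 among these 10, with 16 bases. It begins at the first base of the window and goes on upstream, as the upstream sequence below shows. The run of Rplp2 also begins at the window's first base and ends before the annotated start.

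Short motifs were counted in the same windows. Within 20 bases of the start on the gene strand, CTTTC was found in 48.1% of core genes and 4.97% of all windows, CTCTT in 33.3% and 5.56%, and CTTCC in 37% and 8.28%. At least 1 of these 3 was found in 70.4% of core genes and 16.1% of all windows. Over the whole window of 300 bases and on both strands, CTTCCG was found in 53.7% of core genes and 16.6% of all windows, GGGCGG in 61.1% and 33.1%, AAGATGG in 16.7% and 7.01%, and TATAAA in 11.1% and 14.2%. CTTCCG contains CTTCC, so these counts overlap. The 150 bases upstream of Rps2 (chr10:14251698-14251847, plus strand) are shown with TATAAA and CTTCCG in capitals, since Rps2 had one of the largest differences between groups.
Rps2 upstream: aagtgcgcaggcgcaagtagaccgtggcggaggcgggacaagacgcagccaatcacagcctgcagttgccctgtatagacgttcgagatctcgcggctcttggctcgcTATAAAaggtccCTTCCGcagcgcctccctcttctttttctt

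The deposited values are normalized counts, a signal on the scale of read counts that corrects for library size and not for gene length, so levels are compared between rats and not between genes. Estimated reads per library were 12.9 to 21.1 M in WT, 13.7 to 16.7 M in HIP and 12.9 to 23.6 M in AKO rats. A few libraries stood apart in marker genes of other brain regions. The mean log2 deviation of the cerebellar list from its mean over the 30 rats was 6.60 in WT rat 10RT43 and 3.84 in HIP rat 12RT23. That of the pineal list was 8.54 and that of the choroid plexus list 5.36 in HIP rat 10RT46. The choroid plexus list was also high in AKO rat 7AKO19, at 3.30. The olfactory bulb list was at 3.97 in 10RT51 and 3.78 in 10RT50 (both WT), 3.05 in 10RT53 and 2.86 in 10RT49 (both HIP), and 3.85 in AKO rat 6AKO35, and the striatal list reached at most 1.77, in WT rat 10RT55. The neocortical neuron list was lowest in 10RT43, at -3.68, and lay between -0.45 and 0.52 in the other rats. AKO rat 4KAH27 was the lowest AKO rat in 4 cell type lists. These were endothelium (-1.31), oligodendrocytes (-0.71), astrocytes (-0.67) and microglia (-0.60). Its mean deviation of the core genes was 0.30, the second highest of the AKO rats, and the part of these lists in it was not tested. Counts of core genes are given with and without 10RT43 and 10RT46 where they change. In tissue of mixed cells, fewer cells of a type and less RNA per cell cannot be told apart.

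The level of the core genes was summed up for each rat. The mean log2 deviation of the 68 genes was -0.02 ± 0.16 (SD, n = 10) in WT, -0.11 ± 0.16 in HIP and 0.13 ± 0.25 in AKO rats. WT rats lay between -0.21 and 0.27, HIP rats between -0.27 and 0.27, and AKO rats between -0.16 and 0.71. The 3 groups overlapped.

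**Figure D1:**
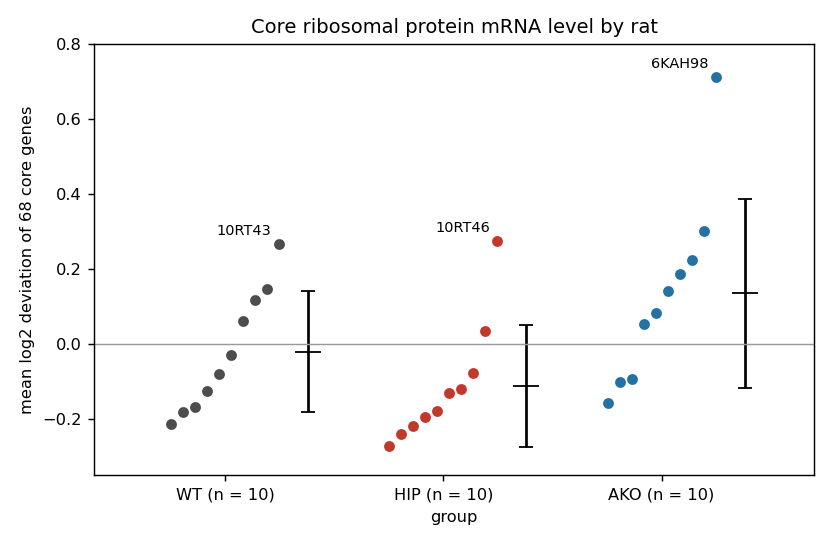
Each point is 1 rat, and the y axis is the mean over 68 core ribosomal protein genes of the log2 deviation from the gene's mean over 30 rats, with the mean ± SD of each group in black. AKO rat 6KAH98 sits at 0.71, and the next AKO rat at 0.30, while 10RT43 (0.27) and 10RT46 (0.27) are the highest WT and HIP rats.

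AKO rat 6KAH98 was the highest of all 30 rats for 60 of the 68 core genes, and it was above the gene's mean for 67. Its core genes took 1.196% of the normalized counts, against a median of 0.88% in AKO, 0.76% in WT and 0.73% in HIP rats. In the same rat the nuclear genes of the respiratory chain deviated by 0.77, the largest value of any rat, and the mTOR list by -0.35, the smallest. Their part in its core level was not tested. The lowest levels were spread over more rats, with 13 core genes lowest in HIP rat 10RT53, 11 in 12RT23 and 8 in 10RT41. The olfactory bulb list was at 3.05 in 10RT53 and the cerebellar list at 3.84 in 12RT23, and their part was not tested.

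**Figure D2:**
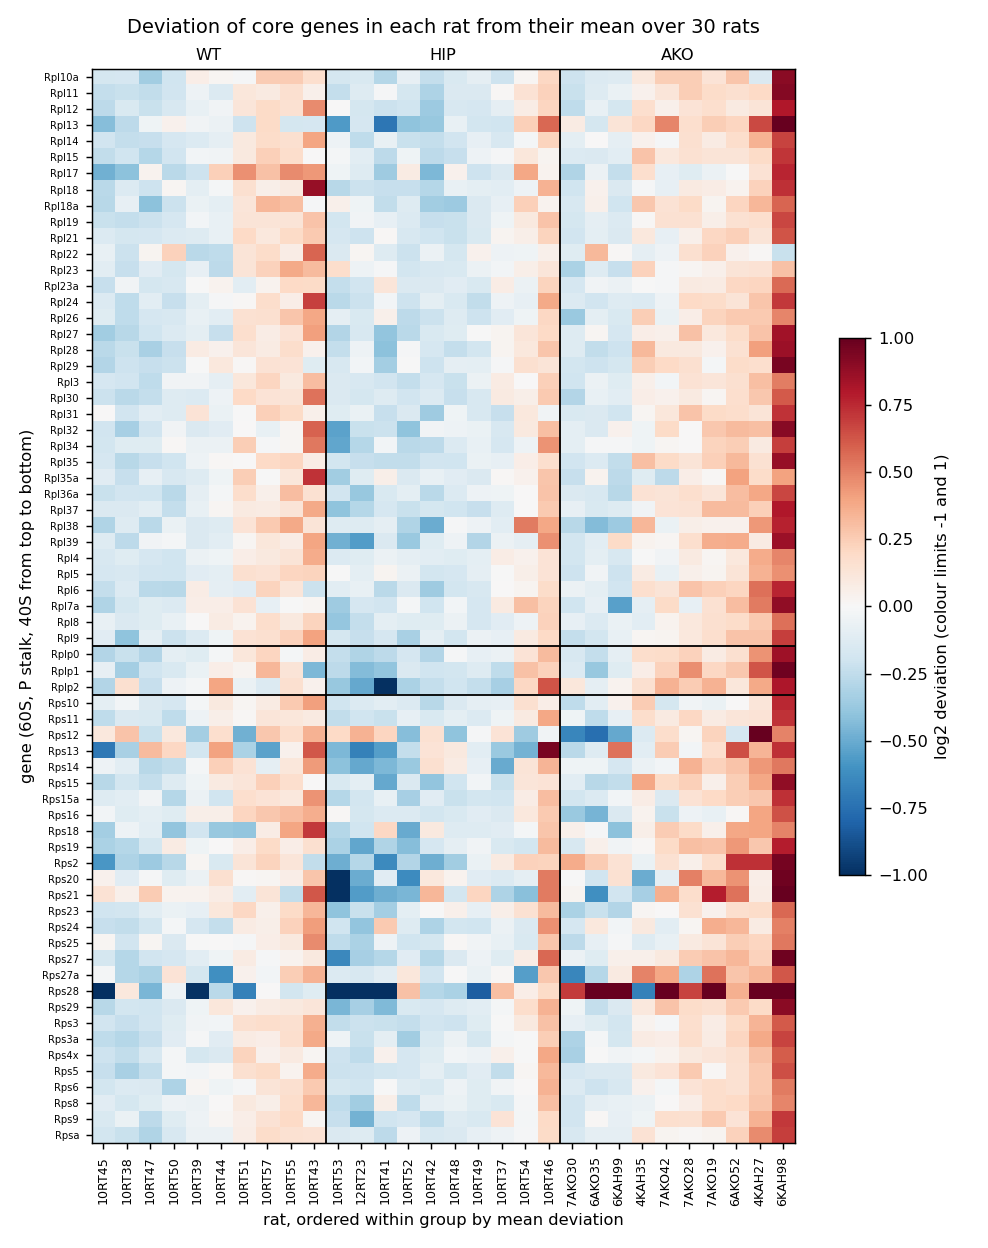
Rows are core genes by subunit, columns are the 30 rats ordered within group by mean deviation, and color is the log2 deviation of a gene in a rat from its mean over all rats, cut at -1 and 1. The column of 6KAH98 is red for all genes shown but Rpl22, and Rps28 is the row with the widest spread.

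The spread of core genes within groups was below that of all genes and near that of genes with high counts. The median SD of log2 values within groups was 0.23 over the 68 core genes, 0.33 over all 17134 genes and 0.25 over 11590 genes whose mean reached 100. The smallest SDs were 0.17 for Rpl8, Rpl23a and Rpl4, which encode proteins of the 60S subunit. The largest were 0.76 for Rps28, 0.46 for Rps21 and 0.42 for Rps13, all of the 40S subunit and all read at low counts here.

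In HIP vs. WT rats, few core genes differed. Of 68 core genes, 3 were lower and 0 higher at an unadjusted p under 0.05 (limma), whereas of all 17085 genes tested 2.57% passed, 1.46% lower and 1.11% higher. None of the members passed with Benjamini-Hochberg adjustment, and 0 genes did over the whole table. The difference was below 0 in 65 of the 68 core genes, with a median of -0.08 on the log2 scale against 0.0018 over all genes tested, of which 50.6% were above 0. In the same comparison 37 of 42 nuclear genes of the respiratory chain (median -0.08) and 13 of 13 of the mitochondrial DNA (median -0.16) were also below 0. Their part was not tested. Among the core genes that passed were Rpl31 and Rps16.

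Rpl31, a protein near the exit of the peptide tunnel, had 829.2, 945.2 and 1112 normalized counts in the lowest, median and highest WT rat and 740.0, 862.6 and 1015 in HIP rats. It was lower by -0.14 ± 0.06 (log2 ± SE, unadjusted p = 0.037, limma), and 3 HIP rats lay under the lowest WT rat. Rps16, which sits near the decoding center of the 40S subunit, had 3085, 3490 and 4302 in WT and 2954, 3047 and 4019 in HIP rats. It differed by -0.16 ± 0.08 (p = 0.0476), with 6 HIP rats under the lowest WT rat. The ranges of both groups overlapped for both genes. The only 3 core genes above 0 in HIP rats had differences of at most 0.02, and of these Rps4x, the X-linked 40S protein, had the smallest p (0.02 ± 0.08, p = 0.767).

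This count rested on single rats. It was 14 without HIP rat 10RT46, 6 without 10RT50, and 5 without 10RT45 or 10RT54. It was 1 without 10RT39, 10RT43, 10RT51, 10RT55, 10RT41, 10RT42, 10RT48, 10RT49 or 12RT23, and 0 without 10RT57, 10RT37 or 10RT52. Estimated reads also differed, with medians of 19.1 M in WT and 15.7 M in HIP rats. With estimated reads as a covariate the count was 8, and with that covariate and without 10RT43 it was 0, with a median core difference of 0.06. In that fit Rpl31 (0.02) and Rps16 (0.04) turned to the other side of 0, and in a single fit of all 30 rats neither passed. Summed with its copy Rpl31l4, an alternative chosen after the data were seen, Rpl31 no longer passed (-0.09, p = 0.179).

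In AKO vs. WT rats, more core genes were higher than lower. Of 68 core genes, 8 were higher and 0 lower at an unadjusted p under 0.05, whereas of the 17058 genes tested 9.34% passed, 5.23% higher and 4.12% lower. The difference was above 0 in 62 core genes, with a median of 0.14 against 0.0014 over all genes, of which 50.3% were above 0. With Benjamini-Hochberg adjustment 0 members and 17 genes in all (0.0997%) passed, 0.0528% higher and 0.0469% lower. The 8 genes were Rps28, Rps2, Rps27 and Rps19 of the 40S subunit, Rpl13 and Rpl6 of the 60S subunit, and Rplp1 and Rplp2 of the stalk.

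Rps28 encodes a small protein at the mRNA exit of the 40S subunit. It had 0.97, 4.02 and 5.33 normalized counts in the lowest, median and highest WT rat and 2.67, 12.2 and 22.9 in AKO rats. In AKO rats 9 of 10 lay above the highest WT rat, and 4KAH35 was the exception. The difference was 1.41 ± 0.30 (p = 0.000131, adjusted p = 0.0755, limma with Benjamini-Hochberg), and its level is a few reads in WT and HIP rats, so that counting error is large. Reads of Rps28 may also be shared with near-identical copies elsewhere in the genome, which makes the value uncertain.

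Rps2, at the entry of the mRNA channel, had 578.0, 754.3 and 1010 in WT and 824.3, 1004 and 1685 in AKO rats. All 10 AKO rats were above the WT median and 5 above the highest WT rat, and the difference was 0.49 ± 0.13 (p = 0.00105, adjusted p = 0.182, limma with Benjamini-Hochberg). Rpl13 had 236.6, 294.7 and 364.4 in WT and 282.9, 369.8 and 648.3 in AKO rats. It was higher by 0.42 ± 0.12 (p = 0.002), with 6 AKO rats above the WT range. Rpl6 had 1233, 1375 and 1747 in WT and 1309, 1713 and 2539 in AKO rats, a difference of 0.29 ± 0.11 (p = 0.0112), with 4 AKO rats above the WT range. Rps27, a zinc finger protein, had 703.0, 816.6 and 919.6 in WT and 789.3, 962.1 and 1682 in AKO rats, a difference of 0.28 ± 0.10 (p = 0.0124), with 5 AKO rats above the WT range. Both groups overlapped for each of these genes.

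No core gene was lower in AKO rats at this threshold. Rps16 had the smallest p in that direction, at -0.12 ± 0.12 (p = 0.33). The count of 8 was 5 without 6KAH98 or 10RT45, 14 without 10RT43 or 6KAH99, and 16 without 6AKO35 or 7AKO30. It was 5 with estimated reads as a covariate and 43 with weights for the quality of each library, in which case 7 core genes passed after adjustment. In the same comparison 4 of 8 microglia genes were higher and 0 lower at an unadjusted p under 0.05. Of all genes 5.23% were higher and 4.12% lower. Below 0 were Tmem119 (-0.48) and P2ry12 (-0.08), and 6 of the 8 microglia genes were above 0. Both genes of the red blood cell list were also above 0 and all 10 of the cerebellar list below 0, and none of these passed. The part of these lists was not tested. Without 10RT43, 10RT46, 4KAH27 and 6KAH98, an alternative chosen after the data were seen, Rpl6 (0.17, p = 0.0626), Rplp1 (0.11, p = 0.33) and Rplp2 (0.17, p = 0.106) no longer passed, and Rps16 was lower (-0.22, p = 0.0137).

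In HIP vs. AKO rats, over 50% of the core genes were lower in HIP rats. Of 68 core genes, 37 were lower in HIP rats and 0 higher at an unadjusted p under 0.05, whereas of the 17092 genes tested 12.7% passed, 6.9% lower and 5.85% higher. They comprised 19 of 36 genes of the 60S subunit, 15 of 29 of the 40S subunit and all 3 of the stalk. The difference was below 0 in 67 core genes, with a median of -0.21 against 0.0047 over all genes, of which 51% were above 0. None of the core genes passed after adjustment, whereas 29 genes (0.17%) did over the whole table, 0.0995% lower and 0.0702% higher. HIP and AKO rats here are the same rats that were set against WT, so the 3 comparisons are not independent. The core genes are not independent of each other either, since many moved together within a rat. AKO rat 6KAH98, for example, was the highest rat for 60 of the 68. The counts of core genes in each comparison are therefore not counts of separate results. By rat, the mean core deviation was -0.11 ± 0.16 (SD) in HIP and 0.13 ± 0.25 in AKO rats, with overlap.

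**Figure D3:**
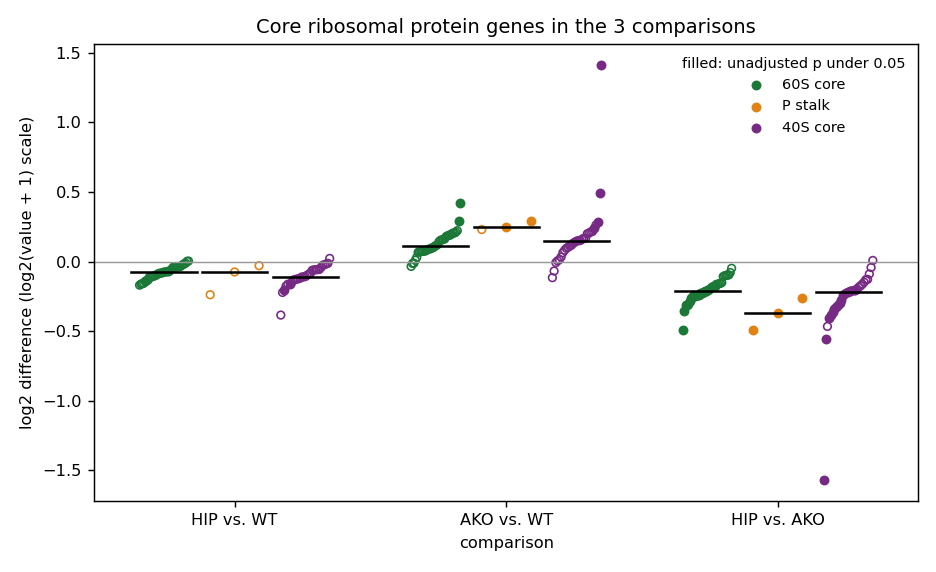
Each point is 1 core gene, the y axis is its log2 difference on the log2(value + 1) scale in the comparison named on the x axis, color is the subunit, filled points have an unadjusted p under 0.05, and black lines are medians. Filled points number 3 in HIP vs. WT, 8 in AKO vs. WT and 37 in HIP vs. AKO rats.

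The smallest p-values were those of Rps28, Rps2, Rps19, Rpl13 and Rplp2 (described with the stalk). Rps28 had 0, 3.77 and 6.23 normalized counts in HIP rats, all 10 of them under the AKO median of 12.2, and differed by -1.57 ± 0.38 (p = 0.000397, adjusted p = 0.097, limma with Benjamini-Hochberg). Rps2 had 556.5, 707.8 and 1016 in HIP rats, 6 of them under the lowest AKO rat (824.3), and differed by -0.56 ± 0.14 (p = 0.000491). Rps19, the 40S protein most often mutated in Diamond-Blackfan anemia, had 412.5, 522.2 and 735.1 in HIP, 474.4, 604.2 and 673.2 in WT and 527.8, 694.5 and 1018 in AKO rats. It differed by -0.40 ± 0.11 in HIP vs. AKO rats (p = 0.00129), and 6 HIP rats lay under the lowest AKO rat. Rpl13 had 192.7, 279.3 and 474.6 in HIP rats and differed by -0.49 ± 0.15 from AKO rats (p = 0.00357). No member had groups without overlap in any of the 3 comparisons, and over all genes this was so for 0, 2 and 1.

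The only core gene above 0 was Rps12, with 20.8, 29.7 and 36.2 in HIP and 16.4, 27.2 and 59.6 in AKO rats and a difference of 0.01 ± 0.20 (p = 0.967). The count of 37 was 22 without AKO rat 6KAH98, 49 without 7AKO30, and 53 without 10RT46, in which case 1 core gene passed after adjustment. Of the 8 microglia genes 4 were lower and 1 higher in HIP vs. AKO rats, against 6.9% and 5.85% of all genes. Other lists also differed. Both red blood cell genes (median -0.77) and 8 of 9 striatal genes (median -0.42) were below 0, and 1 of each list passed. Above 0 were 9 of 10 cerebellar genes, none of which passed, and 8 of 10 neocortical neuron genes, of which 2 passed. The part of these lists was not tested in this comparison. The count of core genes was 42 without 10RT43, 10RT46, 4KAH27 and 6KAH98 together, an alternative chosen after the data were seen. It was 56 with weights for library quality, in which case 28 core genes passed after adjustment.

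The 3 stalk proteins bind the translation factors that hydrolyze GTP. Rplp0, the base of the stalk, had 3749, 4413 and 5342 normalized counts in WT, 3730, 4219 and 5741 in HIP and 3892, 5169 and 8292 in AKO rats. Rplp1 had 2610, 3385 and 4493 in WT, 2643, 3122 and 4373 in HIP and 2746, 4145 and 7015 in AKO rats. Rplp2 had 89.1, 106.7 and 144.2 in WT, 52.8, 90.1 and 169.4 in HIP and 102.8, 126.3 and 192.1 in AKO rats. The groups overlapped for all 3, and 8 HIP rats had less Rplp2 than the lowest AKO rat. In HIP vs. AKO rats all 3 were lower, Rplp0 by -0.26 ± 0.11 (p = 0.0307), Rplp1 by -0.37 ± 0.14 (p = 0.0131) and Rplp2 by -0.49 ± 0.16 (p = 0.00476). There Rplp0 no longer passed in 6 of the 20 fits that left out 1 rat. In AKO vs. WT rats Rplp1 (0.29 ± 0.14, p = 0.0459) and Rplp2 (0.25 ± 0.11, p = 0.0343) were higher, and Rplp0 did not pass (0.23 ± 0.11, p = 0.0507). Leaving out 1 rat, Rplp1 no longer passed in 12 of 20 fits and Rplp2 in 7, while Rplp0 passed in 6. With estimated reads as a covariate neither Rplp1 (0.265, p = 0.0827) nor Rplp2 (0.196, p = 0.0879) passed (limma). In HIP vs. WT rats the values were -0.03 ± 0.08, -0.07 ± 0.10 and -0.24 ± 0.15, and none passed. Rplp2 depended on the rats used, with -0.335 without 10RT46 and -0.15 without 10RT41. It passed with weights for library quality (-0.276, p = 0.0371, limma). Without 10RT43, 10RT46, 10RT48 and 7AKO19 it also passed (-0.346, p = 0.0196, limma).

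Rpl39l was the only member with an adjusted p under 0.05 in any comparison. By its symbol it encodes a paralogue of Rpl39, a short protein in the wall of the peptide tunnel, and is known for its expression in testis. It had no match by symbol in RefSeq of GRCr8. Its lowest, median and highest normalized counts were 0, 5.16 and 18.04 in WT, 2.47, 7.595 and 22.6 in HIP and 0, 0.69 and 5.71 in AKO rats. It was listed at 0 in 5 AKO rats, and only 1 AKO rat had more than 3 estimated reads, against 5 WT and 9 HIP rats. All 10 HIP rats lay above the AKO median and 8 above the highest AKO rat. Its difference in HIP vs. AKO rats was 2.39 ± 0.41 (adjusted p = 0.00969, limma with Benjamini-Hochberg).

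In the other direction from the core genes, Rpl39l was lower in AKO vs. WT rats at -1.51 ± 0.52 (unadjusted p = 0.00849, adjusted p = 0.367, limma with Benjamini-Hochberg). In HIP vs. WT rats it did not pass, at 0.88 ± 0.49 (p = 0.0837). These fold changes depend on the pseudocount, and the difference in HIP vs. AKO rats was 4.12 with a pseudocount of 0.1 and 1.2 with 5.

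**Figure D4:**
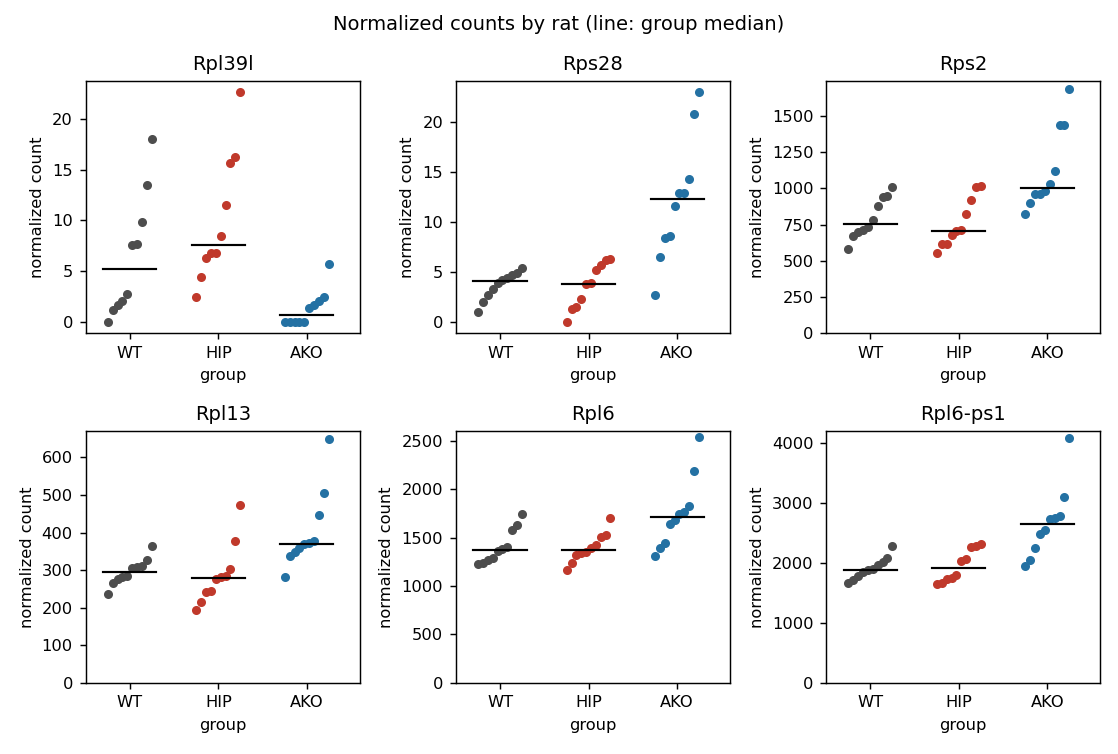
Each point is 1 rat, the y axis is the normalized count, and the black line is the median of the group. Rpl39l is listed at 0 in 5 AKO rats, while Rps28, Rps2, Rpl13, Rpl6 and Rpl6-ps1 have their highest value in an AKO rat, which is 6KAH98 for all of these but Rps28.

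The other 5 paralogues did not pass after adjustment. Rpl10l, a paralogue of Rpl10 known for its role in the male germ line, had 21.7, 29.4 and 73.0 normalized counts in WT, 31.9, 42.4 and 84.0 in HIP and 18.96, 28.01 and 51.03 in AKO rats. It was higher in HIP vs. AKO rats by 0.55 ± 0.21 (p = 0.0148), did not pass in HIP vs. WT rats (0.46 ± 0.22, p = 0.0514), and was -0.09 ± 0.24 in AKO vs. WT rats. Rpl3l, the muscle paralogue of Rpl3, had medians of 6.38 in WT, 5.54 in HIP and 4.76 in AKO rats. Rpl22l1, the paralogue of Rpl22, had medians of 244.1, 237.1 and 198.9. Rpl7l1, which acts in the assembly of the 60S subunit, had medians of 1272, 1266 and 1242, and Rps27l, a p53 target and paralogue of Rps27, had medians of 50.1, 48.8 and 51.6. None of the last 4 passed in any comparison, with differences between -0.13 and 0.18.

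The 12 copies were set beside their parent genes by the share of the pair's counts assigned to each. These shares do not measure how many reads fit both. In 6 of the 12 pairs the copy held over 50% of the normalized counts of the pair. The share was 98.8% for Rps27a-ps1, 95.6% for Rps18l1, 81.1% for Rps15al4, 79.1% for Rps10l1, 68.3% for Rpl31l4 and 58.7% for Rpl6-ps1. It was 42.4% for Rps12l2, 21.1% for Rpl32-ps3 and at most 2.40% for the other 4. In RefSeq, 5 of the copies are pseudogenes and 6 are protein coding. The levels of all 12 parent genes are therefore uncertain, since the counting could split reads between gene and copy. Among them are Rps27a, Rps18, Rps15a, Rps10, Rpl31, Rpl6, Rps12 and Rpl32, and a small share of the copy does not remove this.

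**Figure D5:**
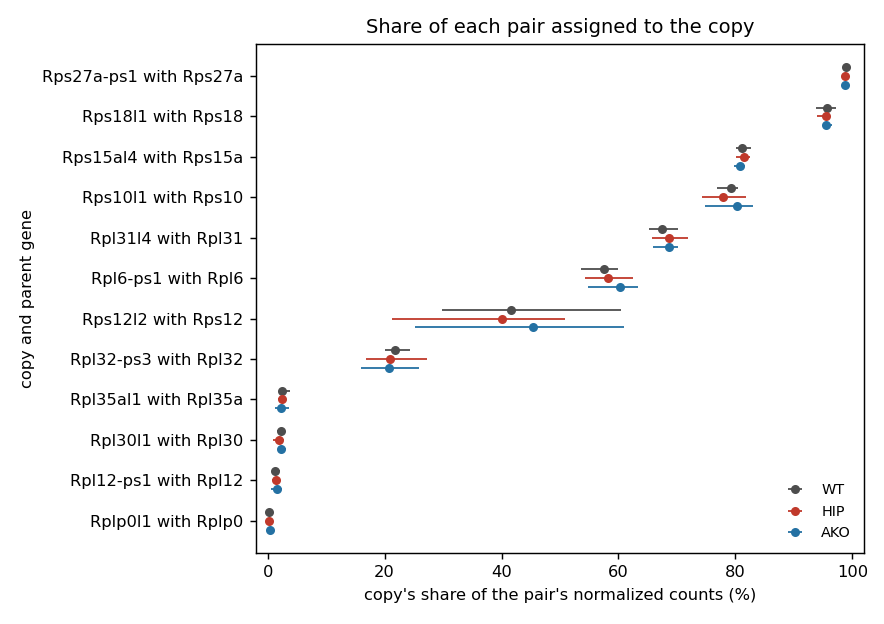
Points are the mean share of the normalized counts of a pair that was assigned to the copy, bars run from the lowest to the highest rat, and colors are WT, HIP and AKO rats (n = 10 each). The mean share of Rpl6-ps1 is 57.6% in WT, 58.2% in HIP and 60.3% in AKO rats.

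Of the 12 copies, 9 were below 0 in HIP vs. WT, 11 above 0 in AKO vs. WT and 11 below 0 in HIP vs. AKO rats. At an unadjusted p under 0.05, 7 of 12 were lower and 0 higher in HIP vs. AKO rats, against 6.9% and 5.85% of all genes. The 3 copies with the highest levels were Rps27a-ps1, Rps18l1 and Rpl6-ps1. Rps27a-ps1 had medians of 3554 in WT, 3585 in HIP and 4126 in AKO rats and differed by -0.21 ± 0.09 in HIP vs. AKO rats (p = 0.034). Rps18l1 had medians of 2725, 2549 and 3008 and differed by -0.25 ± 0.08 (p = 0.00562).

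Rpl6-ps1 had 1673, 1891 and 2283 normalized counts in WT, 1648, 1918 and 2312 in HIP and 1955, 2645 and 4088 in AKO rats. All 10 AKO rats were above the WT median and 7 above the highest WT rat. It was higher in AKO vs. WT rats by 0.46 ± 0.10 (p = 0.000249, adjusted p = 0.097, limma with Benjamini-Hochberg) and lower in HIP vs. AKO rats by -0.43 ± 0.11 (p = 0.000647), with 0.02 ± 0.08 in HIP vs. WT rats. Summed with Rpl6, the pair differed by 0.39 in AKO vs. WT and -0.38 in HIP vs. AKO rats.

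Rps10l1 was the only copy to pass in HIP vs. WT rats, with 1583, 1686 and 2373 in WT and 1113, 1481 and 2001 in HIP rats. It was lower by -0.25 ± 0.09 (p = 0.00938, adjusted p = 0.999, limma with Benjamini-Hochberg), and 8 of 10 HIP rats lay under the lowest WT rat. It was also lower in HIP vs. AKO rats, by -0.37 ± 0.11 (p = 0.00398). Rps10l1 and its parent Rps10 summed to -0.22 in HIP vs. WT rats. With estimated reads as a covariate and without 10RT43, Rps10l1 no longer passed in that comparison (-0.05, p = 0.684).

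Genes that act with the ribosomal proteins were read from lists. Fau, which encodes the 40S protein Rps30 as a fusion, was lower in HIP vs. WT rats by -0.24 ± 0.09 (p = 0.0174) and in HIP vs. AKO rats by -0.24 ± 0.10 (p = 0.0246). Rack1, the scaffold on the 40S subunit, was lower in HIP vs. AKO rats by -0.16 ± 0.07 (p = 0.0337). Of 15 other TOP mRNAs, 3 were higher in AKO vs. WT rats (Tpt1 by 0.27, Vim by 0.39 and Eef1a1 by 0.18) and 4 were lower in HIP vs. AKO rats, with a median of -0.09 against -0.21 for the core genes. Of all genes 5.23% were higher in AKO vs. WT and 6.9% lower in HIP vs. AKO rats.

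Of 56 genes of ribosome biogenesis, 0 passed in HIP vs. WT, 0 in AKO vs. WT and 4 in HIP vs. AKO rats, all lower, among them Rrp12 (-0.24), Eif6 (-0.27) and Fbl (-0.20). This share is near the 6.9% of all genes that were lower, and their median difference in HIP vs. AKO rats was -0.03. Of 18 genes through which mTOR controls TOP mRNAs, 4 were lower in HIP vs. AKO rats against 6.9% of all genes, among them Akt1s1 (-0.24), Ddit4 (-0.31) and Eif4ebp1 (-0.32), and 0 passed in the comparisons with WT rats. The median of these 18 was 0.04 in HIP vs. AKO rats, with 10 of them above 0. The nuclear respiratory chain had 3 of 42 genes lower and the mitochondrial DNA 5 of 13 lower in HIP vs. AKO rats, and the first of these shares is near the 6.9% of all genes.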

How the data were processed

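RNA from 30 rats was sequenced, and labels gave each rat's group. Per the labels each sample is a separate rat. The authors used Partek Flow to align reads to rn7, to count them per gene of Ensembl105 and to normalize the counts with DESeq2. The submitters' processing notes name Partek 10.0.22.0228, Bowtie2, STAR 2.7.8a and DESeq2. The deposited values are a signal, the normalized counts. Whole reads could not be recovered, since only 41.7% to 56.0% of values below 100 were whole multiples of the value of 1 read (tolerance 0.02 of a step), so that no count test was run and estimated reads are approximate.

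Each comparison was fitted with limma 3.58.1 in R 4.3.3 (eBayes with trend, two-sided) on log2(value + 1), with the rats of both groups, no covariates, and genes with a mean of at least 1. Fold changes on this scale understate those of low genes. P-values were adjusted by Benjamini-Hochberg over all genes tested, and the threshold was 0.05. On simulated data 191, 186 and 190 of 200 genes changed 2-fold were recovered in HIP vs. WT, AKO vs. WT and HIP vs. AKO rats, with 13, 14 and 8 unchanged genes called. The simulation drew each gene independently, with the same dispersion for all genes and no library that stood apart. A 2-fold change is also larger than nearly all core differences here. It therefore checks the code and does not measure power or error in these data. Tables were prepared in Python 3.11.15 with pandas 2.3.3.

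Members and lists were chosen with earlier results of these data known. Named members were the stalk genes, all paralogues, the 5 core genes with the smallest unadjusted p in each direction (or the 1 smallest), the 3 largest and 3 smallest SDs, members passing after adjustment and the 3 highest copies. Rps10l1 was named after its values were seen. The values of 1 member are not reported here. Of the 86 members, 83 matched RefSeq symbols of GRCr8, all but Rpl10l, Rpl31l4 and Rpl39l, and 16 merge several Ensembl identifiers. No gene lengths were used here, so levels per coding length were not compared. Alternatives were other pseudocounts, filters, scalings, weights, a depth covariate, a single fit and the omission of rats. Summing copies with their parents, and leaving out 10RT43, 10RT46, 4KAH27 and 6KAH98 together, were chosen after the data were seen.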

Additional observations from a re-analysis of the deposited data

Results flagged for a closer look

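The highest and lowest rat of each group were examined with Dixon's test at the 95% level, which divides the distance to the next rat by the whole range. This was examined in 87 groups, where chance gives about 1 in 20, or 4.3, if the groups are independent. They are not, since the same rats were read for every gene. Several genes were also named for a large spread or a small p, so 4.3 is no measure of chance here. Of the 87 groups, 18 had a rat past this level. AKO rat 6KAH98 was the highest of its group in 8 of these, with 379.1 normalized counts of Rpl22l1, 2330 of Rpl23a, 1562 of Rpl31, 6281 of Rpl8, 192.1 of Rplp2, 3156 of Rps10l1 and 1682 of Rps27, and a mean core deviation of 0.7113. HIP rat 10RT46 was the highest in 5, with 5007 normalized counts of Rpl8, 128.2 of Rps13, 735.1 of Rps19, 1279 of Rps27 and 5938 of Rps4x. WT rat 10RT43 was the highest in 3, with 8458 of Rpl4, 2373 of Rps10l1 and 72.31 of Rps21. WT rat 10RT57 had 12.3 of Rpl3l, and AKO rat 4KAH35 had 5.708 of Rpl39l.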

How the results depend on the processing

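No paired analysis was possible because the labels carry no replicate numbers that the groups share. Unadjusted counts of core genes in HIP vs. WT rats (3) became 0 with all 30 rats in a single fit, 8 with weights for library quality, 1 with quantile normalization, 8 with estimated reads as a covariate, 0 with that covariate and without 10RT43 (median 0.06), 14 without 10RT43, 10RT46, 10RT48 and 7AKO19, and 13 without 10RT43, 10RT46, 4KAH27 and 6KAH98. In AKO vs. WT rats the count (8) became 43 with weights, and 5 with the covariate, with or without 10RT43. In HIP vs. AKO rats it (37) became 56 with weights. After adjustment the counts (0) became 7 in AKO vs. WT and 28 in HIP vs. AKO rats with weights, and in HIP vs. AKO rats 1 with all 30 rats in a single fit and 3 without 10RT43, 10RT46, 4KAH27 and 6KAH98. Leaving out 1 rat at a time gave 0 to 14, 5 to 16 and 22 to 53 core genes, and 0, 0 to 1 and 0 to 1 after adjustment. The core medians ranged from -0.13 to -0.05, 0.07 to 0.17 and -0.25 to -0.15. The adjusted p of Rpl39l in HIP vs. AKO rats lay between 0.00464 and 0.0267 without single rats and between 0.000368 and 0.0312 under the other alternatives, and Rpl39l was not tested at a mean of at least 10. The log2 differences of some named members changed sign, always with an unadjusted p over 0.05 in the alternative. With weights, in HIP vs. WT rats these were Rpl4 (0.00805), Rpl6-ps1 (-0.0202) and Rps28 (0.00181). With the covariate, in HIP vs. WT rats these were Rpl3l (0.44), Rplp1 (0.117) and Rps27l (-0.0339). Without 10RT43, 10RT46, 10RT48 and 7AKO19, in HIP vs. WT rats these were Rps27l (-0.0593) and Rps4x (-0.0229). With the covariate and without 10RT43, in HIP vs. WT rats these were Rpl31 (0.0192), Rpl3l (0.499), Rpl4 (0.0741), Rpl6-ps1 (-0.0619), Rplp0 (0.138), Rplp1 (0.118), Rps16 (0.0392), Rps18l1 (0.106), Rps27a-ps1 (0.0358), Rps27l (-0.251) and Rps28 (0.0484). Without 10RT43, 10RT46, 4KAH27 and 6KAH98, in HIP vs. WT rats these were Rpl6-ps1 (-0.0116), Rps27l (-0.0195) and Rps4x (-0.0158). With weights, in AKO vs. WT rats these were Rpl22l1 (0.029) and Rpl7l1 (-0.0257). With the covariate, in AKO vs. WT rats these were Rpl10l (0.03), Rpl3l (0.000473) and Rpl7l1 (-0.0366). With the covariate and without 10RT43, in AKO vs. WT rats these were Rpl10l (0.014) and Rpl7l1 (-0.0198). Without 10RT43, 10RT46, 4KAH27 and 6KAH98, in AKO vs. WT rats this was Rpl7l1 (-0.0463). With a pseudocount of 5, in HIP vs. AKO rats this was Rpl3l (0.00467). With weights, in HIP vs. AKO rats this was Rpl7l1 (0.0104). With quantile normalization, in HIP vs. AKO rats this was Rpl3l (0.0965). With the covariate, in HIP vs. AKO rats these were Rpl3l (0.00848) and Rps12 (-0.158). With copies summed, in HIP vs. AKO rats this was Rps12 (-0.139). Without 10RT43, 10RT46, 4KAH27 and 6KAH98, in HIP vs. AKO rats this was Rpl7l1 (0.0137). Leaving out 1 rat, the sign changed in HIP vs. WT rats for Rpl22l1 (-0.0233 to 0.0707), Rpl3l (-0.213 to 0.0984), Rpl4 (-0.0595 to 0.00324), Rpl6-ps1 (-0.0042 to 0.0525), Rplp0 (-0.0756 to 0.00199), Rps27l (-0.00834 to 0.0877), Rps28 (-0.283 to 0.0647) and Rps4x (-0.0244 to 0.0541), in AKO vs. WT rats for Rpl10l (-0.168 to 0.0373), Rpl3l (-0.181 to 0.0697), Rpl7l1 (-0.0312 to 0.0585) and Rps21 (-0.0105 to 0.17) and in HIP vs. AKO rats for Rpl3l (-0.162 to 0.149) and Rps12 (-0.0721 to 0.128). The cause was not tested. Counting error limits the precision of members with a few reads, such as Rpl39l, Rpl3l and Rps28.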
